A study of Mus musculus with 8 samples.

Results

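DNA replication and mitosis genes were examined in the molar mesenchyme as 51 members. Of these, 27 have a role in S phase and 24 in G2 and mitosis (G2/M). They were picked by gene symbol from textbook functions, with earlier results of these data known. All 51 were present among the 20926 genes of the deposited table, and the filter on low values kept all 51 and 14854 genes altogether; it asked for a value of 1 or more in 4 or more libraries. RNA-seq had been performed on PN day 3 molars of Ezh2 fl/fl (control) mice and of Osr2KI-Cre;Ezh2fl/fl mice, called *Osr2-Cre;Ezh2 fl/fl* here, with 4 libraries in each group. Both genotypes carried the floxed *Ezh2* alleles and were labelled C57BL/6, although the methods of the study give a mixed background. According to the paper, epithelial cells of the tooth were expected to keep *Ezh2* with this driver, whereas mesenchymal and alveolar bone cells can lose it. The sample records state that RNA came from the mesenchyme left after the epithelium had been taken off. Epithelial transcripts were nevertheless found in every library (below). Libraries 1 to 4 of the control held an estimated 50.4, 66.8, 52.8 and 61.9 M reads, and those of *Osr2-Cre;Ezh2 fl/fl* held 48.3, 60.3, 64.1 and 68.8 M. Each of the 51 members had at least 279.8 estimated reads in every library.

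Before a cell divides, it copies its genome in S phase and then separates the copies in mitosis. Origins of replication are licensed when the origin recognition complex, Cdc6 and Cdt1 load the Mcm2 to Mcm7 helicase, which is then activated with Cdc45 and the GINS complex and followed by polymerases, clamp, clamp loader, flap nuclease and ligase. Mitosis needs condensed chromosomes, kinetochores, a bipolar spindle, a checkpoint that delays anaphase until every kinetochore is attached, and cytokinesis. At this age the crown of the mouse molar is still growing and the root has not yet formed, and its mesenchyme holds both dividing cells and odontoblasts that have left the cell cycle. The comparison asked whether transcripts of either phase differed after loss of *Ezh2*, the catalytic subunit of Polycomb repressive complex PRC2, in the mesenchyme.

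Values are the deposited scaled signal, which carries no gene-length factor. The targeted gene *Ezh2* had values of 54.95, 38.3, 39.6 and 39.0 in the control libraries against 35.2, 30.1, 23.2 and 36.01 among *Osr2-Cre;Ezh2 fl/fl* samples, always listed from library 1 to library 4. Every *Osr2-Cre;Ezh2 fl/fl* library lay below every control library, while the log2 fold change of -0.46 had an adjusted p of 0.235 in limma. Control library 1, at 54.95, stood well above the other controls, at 38.3 to 39.6, and raised the control mean. The source of the remaining *Ezh2* transcripts was not tested. *Cdkn2a*, a cell cycle inhibitor gene, was between 0.122 and 0.155 in the control libraries and between 1.501 and 2.23 among *Osr2-Cre;Ezh2 fl/fl* samples (log2 fold change 1.34, adjusted p of 0.000439 in limma), and it separated the groups as labelled. Its group means had a ratio of 13.8, and because the values are low the log2 fold change depended on the pseudocount, at 3.06 with 0.1 and 0.42 with 5 added.

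Markers of the labelled tissue were present: all 9 dental mesenchyme markers were in the table, among them *Msx1* at 80.1 to 108 in the control and 97.6 to 120 among *Osr2-Cre;Ezh2 fl/fl* samples and *Barx1* at 173 to 213 and 166 to 184. Transcripts of enamel-forming ameloblasts were present too and differed widely. The 3 enamel matrix genes *Amelx*, *Ambn* and *Enam* summed to 726, 2298, 15516 and 28280 in the control and 1283, 829, 11280 and 675 among *Osr2-Cre;Ezh2 fl/fl* samples, with *Amelx* the most abundant in 6 libraries and *Ambn* in numbers 2 and 4 of *Osr2-Cre;Ezh2 fl/fl*. Control libraries 3 and 4 and *Osr2-Cre;Ezh2 fl/fl* library 3 therefore stood apart, and the medians and counts of the S-phase and G2/M members are given below with and without them. The epithelial keratin *Krt5* was at 863, 1100.3, 1505 and 1992 in the control and at 1127, 827, 1044 and 854 among *Osr2-Cre;Ezh2 fl/fl* samples. The log2 fold changes of the epithelial genes *Krt14*, *Krt5*, *Epcam*, *Cdh1* and *Krt17* were all negative (-0.27, -0.44, -0.48, -0.40 and -0.48), 0 with an adjusted and 1 (*Epcam*) with an unadjusted p under 0.05 in limma. These genes are part of a list of 6 epithelium markers, and the counts given are not those of the whole list. Of 9 erythroid markers 8 were in the table (*Gata1* was not), and their sum was highest in *Osr2-Cre;Ezh2 fl/fl* library 3, at 699 against 260 to 457 in the other libraries, with *Hbb-bs* the most abundant. Of 4 muscle markers 3 were in the table (*Myog* was not), summing to 19.0 in control library 4 and to at most 6.19 elsewhere.

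Further markers concerned the make-up of the samples. All 4 odontoblast markers had negative log2 fold changes (median -0.67). By limma 0 had an adjusted p under 0.05 and 2, *Dspp* and *Phex*, an unadjusted p under 0.05. Without *Osr2-Cre;Ezh2 fl/fl* library 3, 2 were lower at an adjusted p under 0.05 in limma, beside 1.78% of all genes tested in either direction. With a weight estimated for each library 2 were also lower, beside 27.2% of all genes tested. The level of this list was 0.29, 0.47, 0.50 and 0.04 in the control and -0.51, -0.46, -0.07 and -0.24 for *Osr2-Cre;Ezh2 fl/fl*. All 4 endothelium markers were negative (median -0.24), 0 at an adjusted and 3 (*Pecam1*, *Cdh5*, *Kdr*) at an unadjusted p under 0.05 in limma, and the groups did not overlap for *Cdh5* and *Kdr*. Of 4 bone markers 2 were negative and 2 positive (median -0.17), and 1, *Ibsp*, passed in limma. Of 9 dental mesenchyme markers 2 were negative and 7 positive (median 0.16), and 1, *Lhx8*, passed; 4 (*Msx1*, *Lhx8*, *Dlx6*, *Runx2*) were higher at an unadjusted p under 0.05, and for *Lhx8*, *Dlx6* and *Runx2* the groups did not overlap. *Ibsp* (log2 fold change 1.87, adjusted p of 0.00126 in limma) and the dental mesenchyme marker *Lhx8* (1.17, adjusted p of 0.00509 in limma) were higher in 4 of 4 *Osr2-Cre;Ezh2 fl/fl* libraries than in any control. Over all genes tested 2.07% had an adjusted p under 0.05, 4.87% were lower and 8.27% higher at an unadjusted p under 0.05, and 8.53% had groups that did not overlap. Of the cell types in these lists only enamel-forming cells were entered into a fit of the cell cycle genes; the part of the others in the result was not tested.

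None of the 51 members differed between the groups by limma at an adjusted p under 0.05, where 2.07% of all genes tested did. At an unadjusted p under 0.05 the count was also 0 of 51 in each direction, against 4.87% (lower) and 8.27% (higher) of all genes tested. The groups overlapped for every member, whereas 8.53% of all genes tested had groups that did not overlap. The lowest adjusted p was 0.711 among the S-phase members (*Uhrf1*) and 0.678 among the G2/M members (*Ect2*). The median log2 fold change was -0.04 over the S-phase members, 18 of 27 being negative, and -0.16 over the G2/M members, 23 of 24 being negative, beside 0.01 over all genes tested, of which 45.9% were negative. With median-of-ratios scaling these medians were -0.07 and -0.19, and with quantile scaling -0.05 and -0.18, so their sign did not depend on the scaling. The median over all genes tested was -0.02 and -0.004 under these 2 scalings, with 8211 and 7575 of 14854 genes negative. *Nuf2*, counted among the 23, had nearly equal group means of 41.1 ± 3.37 and 41.5 ± 7.99 (SD, n = 4), and *Birc5* was the G2/M member with a positive value (0.03). The widest limits of the 95% intervals were log2 fold changes of -0.51 and 0.34 for the S-phase members and -0.76 and 0.42 for the G2/M members, and the intervals of all 51 members lay within a change of 2-fold either way. A 1.5-fold lower level was excluded for 27 of 27 S-phase members but for only 11 of 24 G2/M members. In bulk RNA, fewer dividing cells and less RNA per dividing cell cannot be told apart.

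**Figure D1:**
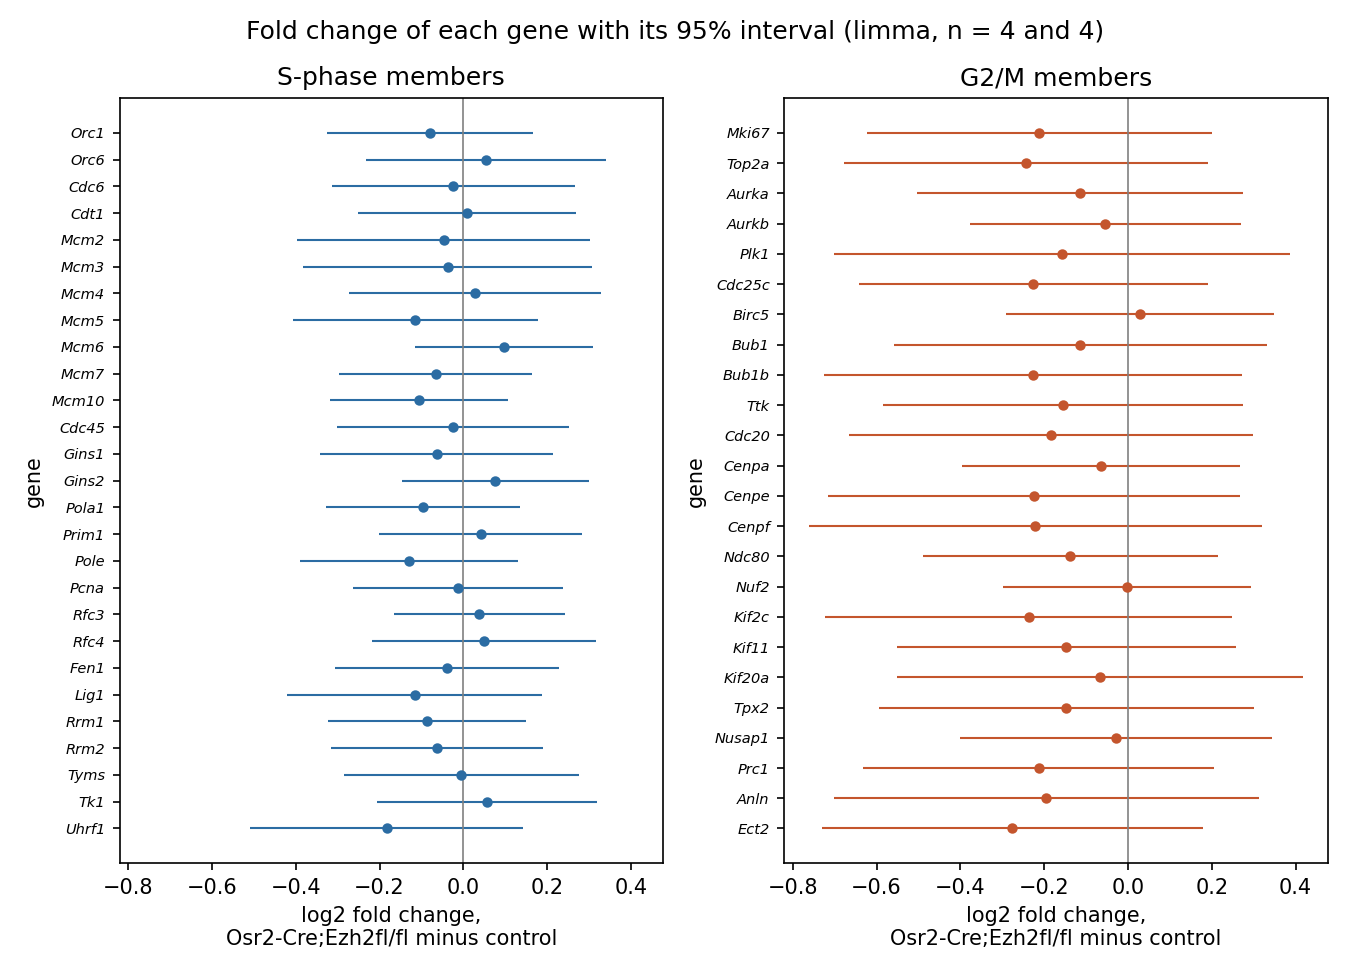
Log2 fold change (*Osr2-Cre;Ezh2 fl/fl* minus control, log2 of value plus 1) of each S-phase gene (left) and G2/M gene (right) from limma, n = 4 libraries per group; points are estimates and bars are 95% intervals. Every interval crosses 0, and 23 of the 24 G2/M estimates lie on the negative side.

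Single *Osr2-Cre;Ezh2 fl/fl* libraries lay further apart than the group means did. For each library the level of a phase was taken as the median over its members of log2(value + 1) minus the gene's mean over the 8 libraries. The S-phase level was -0.01, 0.01, 0.06 and 0.01 in the control libraries and 0.11, -0.07, -0.30 and 0.17 among *Osr2-Cre;Ezh2 fl/fl* samples. The G2/M level was 0.32, 0.12, 0.12 and -0.25 in the control libraries and -0.02, -0.01, -0.60 and 0.31 among *Osr2-Cre;Ezh2 fl/fl* samples. The control libraries were thus close together in S-phase genes but not in G2/M genes, and among the *Osr2-Cre;Ezh2 fl/fl* libraries number 3 was lowest and number 4 highest in both phases. Group means of the S-phase level were 0.02 ± 0.03 and -0.02 ± 0.21, and those of the G2/M level 0.08 ± 0.24 and -0.08 ± 0.38 (SD, n = 4), so in either phase the difference between means was smaller than the SD of the *Osr2-Cre;Ezh2 fl/fl* libraries.

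**Figure D2:**
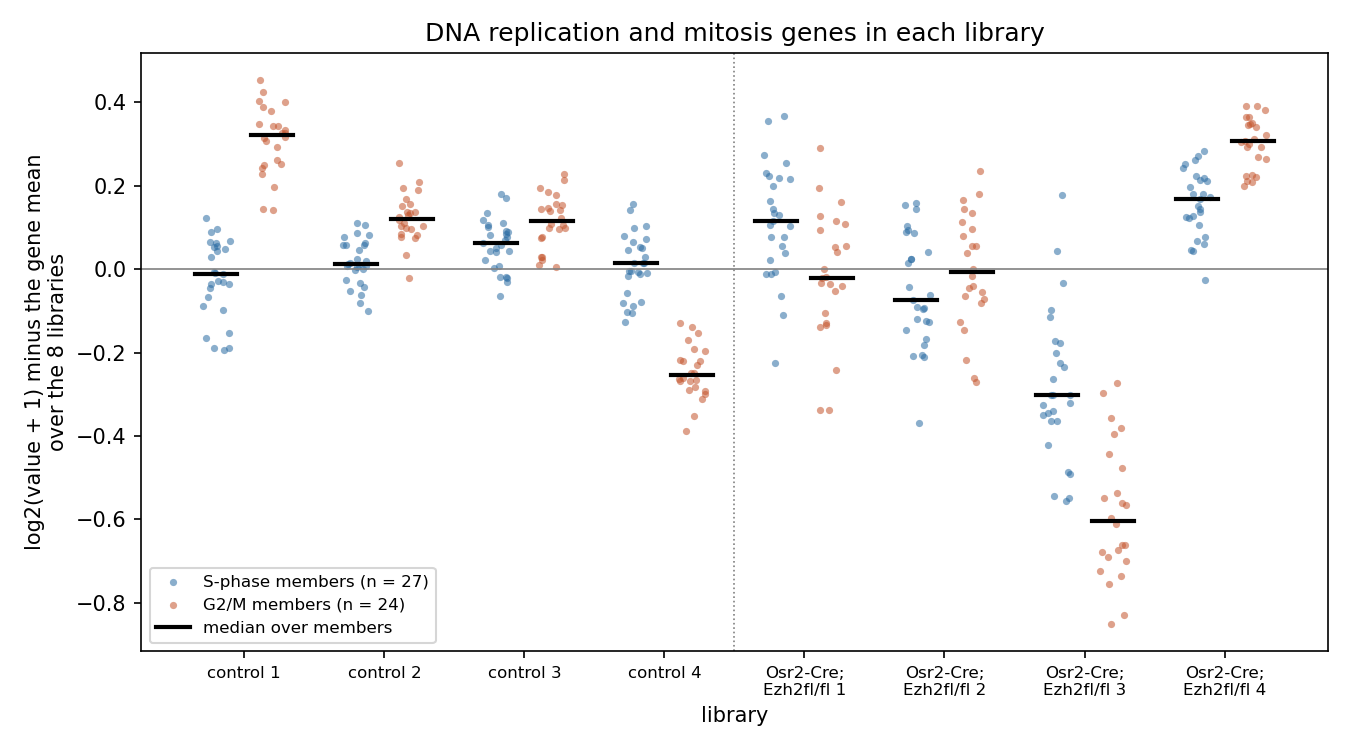
Deviation of each member from its mean over the 8 libraries (log2 of value plus 1; vertical axis) in each library (horizontal axis), S-phase members in blue and G2/M members in orange, with black bars for medians. The G2/M medians reach from 0.32 in control library 1 to -0.60 in *Osr2-Cre;Ezh2 fl/fl* library 3, and the S-phase medians of the control libraries stay between -0.01 and 0.06.

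Single genes followed the same order. *Osr2-Cre;Ezh2 fl/fl* library 3 was the lowest of the 8 libraries for 24 of 24 G2/M members and for 22 of 27 S-phase members, as against 20.95% of all genes tested. *Osr2-Cre;Ezh2 fl/fl* library 4 lay above all 4 control libraries for 23 of 27 S-phase members and 11 of 24 G2/M members, beside 27.4% of all genes tested. Among the control libraries, number 1 was highest for 24 of 24 and number 4 lowest for 24 of 24 G2/M members, but these held for 3 and 12 of the 27 S-phase members and for 5003 and 4914 of the 14854 genes tested. The ratio of the highest to the lowest control library had a median of 1.11 over S-phase members, 1.49 over G2/M members and 1.21 over all genes tested; among the *Osr2-Cre;Ezh2 fl/fl* libraries it was 1.45, 1.95 and 1.35. Members of a list share the same 8 libraries and are not independent replicates.

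The difference between the phases within a library, the G2/M level minus the S-phase level, was 0.33, 0.11, 0.05 and -0.27 in the control libraries and -0.14, 0.07, -0.30 and 0.14 among *Osr2-Cre;Ezh2 fl/fl* samples. Control library 4 and *Osr2-Cre;Ezh2 fl/fl* library 3, which were low in this difference, were both high in enamel transcripts, as was control library 3. Control library 4 also had the highest muscle sum and *Osr2-Cre;Ezh2 fl/fl* library 3 the highest erythroid sum. The part of muscle and blood cells in these levels was not tested; fits with the enamel genes as a covariate and without the libraries high in enamel transcripts are given after the single genes.

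Among the licensing factors, the log2 fold changes of 10 members lay between -0.11 and 0.10, and 6 were negative. *Mcm2*, a subunit of the replicative helicase, had values of 60.6, 61.0, 65.6 and 65.7 in the control and 63.1, 68.8, 42.3 and 75.8 among *Osr2-Cre;Ezh2 fl/fl* samples. The group means were nearly equal, 63.2 ± 2.81 and 62.5 ± 14.4 (SD, n = 4), while *Osr2-Cre;Ezh2 fl/fl* library 3 was far below and libraries 2 and 4 were above every control library (log2 fold change -0.05, 95% interval -0.40 to 0.30). *Mcm5*, another helicase subunit, had control values of 66.4, 66.1, 66.9 and 66.9, with the smallest ratio of highest to lowest control of any member (1.01), and *Osr2-Cre;Ezh2 fl/fl* values of 63.4, 68.3, 45.2 and 72.6. Here 2 of *Osr2-Cre;Ezh2 fl/fl* were below and 2 above all control libraries, and the means were 66.6 ± 0.398 and 62.4 ± 12.1 (SD, n = 4). *Mcm6* had the highest log2 fold change of the S-phase members, 0.10 (95% interval -0.12 to 0.31, exact permutation p = 0.400), with 3 *Osr2-Cre;Ezh2 fl/fl* libraries above all controls and library 3 below them.

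Helicase activation was represented by *Mcm10*, *Cdc45*, *Gins1* and *Gins2*, with log2 fold changes between -0.11 and 0.08. *Mcm10*, which acts when the loaded helicase is activated, had values of 13.7, 15.05, 15.7 and 13.3 in the control and 13.2, 12.9, 12.1 and 15.2 among *Osr2-Cre;Ezh2 fl/fl* samples. In 3 of the 4 *Osr2-Cre;Ezh2 fl/fl* libraries it was below all controls, but library 4 lay within the control range, and the difference did not pass the test (log2 fold change -0.11, exact permutation p = 0.229, the lowest of the S-phase members; adjusted p of 0.755 in limma).

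The 8 genes of DNA synthesis at the fork had log2 fold changes between -0.13 and 0.05. *Pcna*, the sliding clamp, was at 88.6, 102, 105 and 113 in the control and 112, 103, 81.9 and 109 among *Osr2-Cre;Ezh2 fl/fl* samples, and its group means of 102 ± 10.2 and 102 ± 13.6 (SD, n = 4) did not separate (log2 fold change -0.01, 95% interval -0.26 to 0.24). *Pole*, the catalytic subunit of the leading-strand polymerase, was at 29.9, 26.4, 30.2 and 28.5 and at 23.3, 29.2, 22.02 and 31.2. *Lig1*, the ligase that joins Okazaki fragments, was at 62.9, 62.6, 65.2 and 59.7 and at 59.6, 60.6, 42.6 and 71.7. In all 3 genes *Osr2-Cre;Ezh2 fl/fl* library 3 was the lowest library; in *Pole* and *Lig1* library 4 was the highest, and in *Pcna* none of *Osr2-Cre;Ezh2 fl/fl* exceeded control library 4.

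In nucleotide supply (*Rrm1*, *Rrm2*, *Tyms*, *Tk1*) the log2 fold changes were between -0.09 and 0.06. *Rrm2*, the small subunit of ribonucleotide reductase, had values of 47.3, 43.2, 48.0 and 46.1 in the control and 49.4, 43.7, 34.8 and 50.2 among *Osr2-Cre;Ezh2 fl/fl* samples. Library 3 was below the control range and libraries 1 and 4 above it, and the means were 46.1 ± 2.13 and 44.5 ± 7.10 (SD, n = 4). *Uhrf1*, which recruits the maintenance DNA methyltransferase to newly copied DNA, had the largest difference of the S-phase members. Its values were 81.2, 81.8, 86.1 and 74.98 in the control and 78.0, 72.7, 51.3 and 88.1 among *Osr2-Cre;Ezh2 fl/fl* samples, and means of 81.0 ± 4.58 and 72.5 ± 15.6 (SD, n = 4) gave a log2 fold change of -0.18 (standard error 0.14, 95% interval -0.51 to 0.14, exact permutation p = 0.371).

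Both G2/M genes of chromosome structure were abundant. *Mki67*, which coats mitotic chromosomes and is a common proliferation marker, had values of 432, 377, 378 and 289 in the control and 287, 385, 230.0 and 390.3 among *Osr2-Cre;Ezh2 fl/fl* samples. Numbers 1 and 3 of *Osr2-Cre;Ezh2 fl/fl* were below every control, library 1 only just, and the other libraries overlapped. The means were 369 ± 59.2 and 323 ± 78.1 (SD, n = 4), with a log2 fold change of -0.21 (95% interval -0.62 to 0.20, exact permutation p = 0.457). *Top2a*, the topoisomerase that untangles sister chromatids, was at 303, 267, 279 and 219 and at 226, 264, 147 and 285. Its means of 267 ± 35.5 and 231 ± 60.6 (SD, n = 4) came from groups that overlapped, with control library 4 and *Osr2-Cre;Ezh2 fl/fl* library 3 lowest in their groups (log2 fold change -0.24, 95% interval -0.68 to 0.19).

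**Figure D3:**
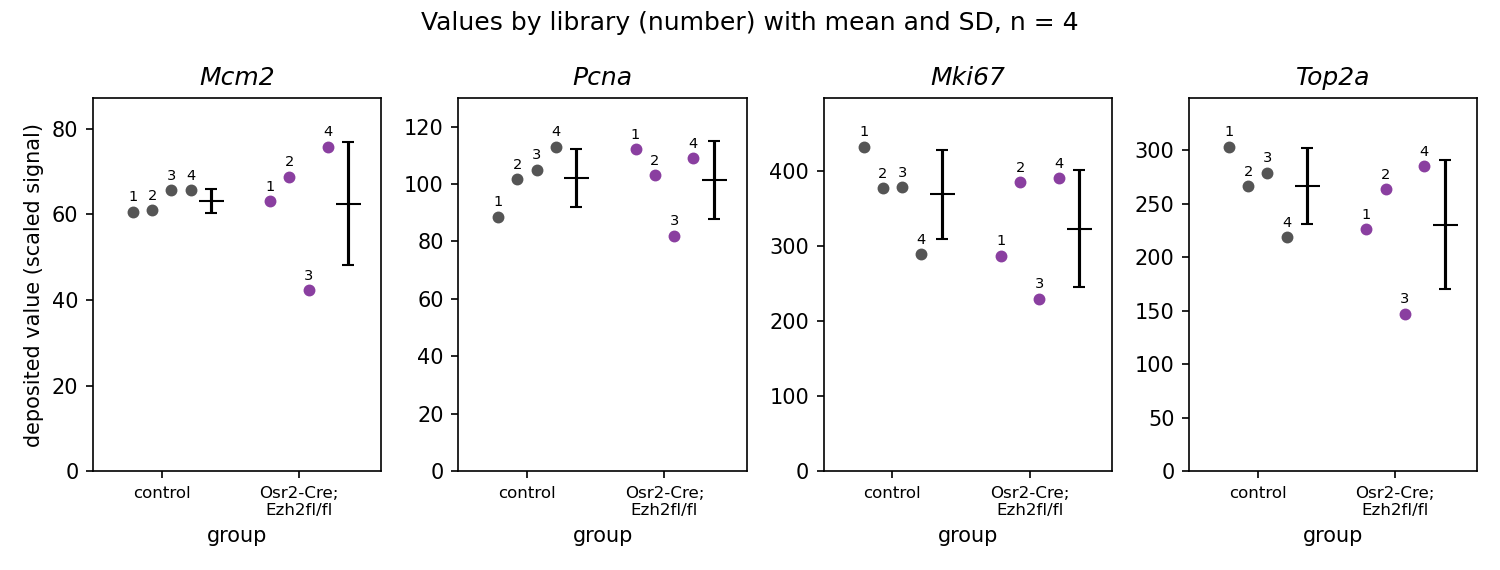
Deposited values of *Mcm2*, *Pcna*, *Mki67* and *Top2a* in each library (numbered points; vertical axis from 0), with the mean and SD of each group (black), n = 4. *Osr2-Cre;Ezh2 fl/fl* library 3 is the lowest point in each plot, at 42.3, 81.9, 230.0 and 147, and the groups overlap in all 4 genes.

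Of the 5 genes of mitotic kinases and entry, 4 had negative log2 fold changes, the lowest being -0.23 (*Cdc25c*). *Aurkb*, the kinase of the chromosomal passenger complex, was at 34.2, 31.3, 31.9 and 24.5 in the control and 32.1, 28.6, 22.5 and 34.7 among *Osr2-Cre;Ezh2 fl/fl* samples, and 1 sample of *Osr2-Cre;Ezh2 fl/fl* lay on either side of the control range. *Cdc25c*, the phosphatase that removes inhibitory phosphates from Cdk1, was at 14.98, 13.2, 13.1 and 10.1 and at 12.1, 9.51, 7.74 and 14.7, with libraries 2 and 3 below all controls (log2 fold change -0.23, 95% interval -0.64 to 0.19, exact permutation p = 0.314).

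The 4 genes of the spindle checkpoint and mitotic exit had log2 fold changes between -0.23 and -0.11. *Bub1b*, which holds back the anaphase-promoting complex, had values of 62.0, 61.2, 60.2 and 46.8 in the control and 52.8, 56.5, 28.8 and 65.3 among *Osr2-Cre;Ezh2 fl/fl* samples. *Cdc20*, the activator of that complex, had values of 43.0, 38.1, 38.1 and 29.6 and of 35.96, 34.2, 20.1 and 44.3. For both, control library 4 stood below the other controls, *Osr2-Cre;Ezh2 fl/fl* library 3 was lowest of all and library 4 highest of all. Group means were 57.6 ± 7.19 and 50.8 ± 15.6 for *Bub1b* and 37.2 ± 5.58 and 33.6 ± 10.1 for *Cdc20* (SD, n = 4), with 95% intervals of the log2 fold change from -0.73 to 0.27 and from -0.66 to 0.30.

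The 6 kinetochore genes had a median log2 fold change of -0.18. *Kif2c*, a kinesin that depolymerizes microtubules at kinetochores, was at 26.9, 24.6, 22.2 and 16.8 in the control and 18.5, 19.9, 12.4 and 26.997 among *Osr2-Cre;Ezh2 fl/fl* samples (log2 fold change -0.24, 95% interval -0.72 to 0.25). The 5 spindle genes had a median of -0.15. Of the cytokinesis genes, *Ect2*, which activates RhoA at the cleavage furrow, had the largest difference of all 51 members: 43.7, 35.8, 38.2 and 28.6 in the control and 31.8, 29.9, 19.8 and 40.9 among *Osr2-Cre;Ezh2 fl/fl* samples. The means were 36.5 ± 6.26 and 30.6 ± 8.66 (SD, n = 4), the log2 fold change was -0.28 (standard error 0.20, 95% interval -0.73 to 0.18), and the exact permutation p was 0.314. In both *Kif2c* and *Ect2* control library 4 was below *Osr2-Cre;Ezh2 fl/fl* library 1, and *Osr2-Cre;Ezh2 fl/fl* library 4 was within or above the control range.

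What was seen in G2/M genes turned on which libraries were used. Without *Osr2-Cre;Ezh2 fl/fl* library 3 the median log2 fold change was 0.02 over the G2/M and 0.06 over the S-phase members, with 15 of 24 and 22 of 27 positive. No member then had an adjusted p under 0.05 in limma (1.78% of all genes tested did), and 2 S-phase members, *Mcm4* and *Mcm6*, were higher at an unadjusted p under 0.05, as were 8.67% of all genes tested. Without *Osr2-Cre;Ezh2 fl/fl* library 4 the G2/M median was -0.30, without control library 4 it was -0.27, and without control library 1 it was -0.08. With enamel transcripts as a covariate (the 3 enamel genes averaged on the log2 scale), the G2/M median was -0.40 and the S-phase median -0.10. In that fit 20 of 24 G2/M members and 1 of 27 S-phase members (*Uhrf1*) were lower at an unadjusted p under 0.05, where 6.11% of all genes tested were lower. No member passed at an adjusted p under 0.05 (lowest 0.117, *Kif2c*), beside 2.03% of all genes tested.

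Leaving out the 3 libraries with high enamel transcripts together, an alternative chosen after the data were seen, left 2 control and 3 *Osr2-Cre;Ezh2 fl/fl* libraries. The median log2 fold change was then -0.12 over the G2/M members, 22 of 24 being negative, and 0.08 over the S-phase members, 20 of 27 being positive. By limma 0 of 51 members had an adjusted p under 0.05, beside 0.0539% of all genes tested. At an unadjusted p under 0.05, 1 S-phase member (*Mcm6*, log2 fold change 0.21) was higher, as were 4.08% of all genes tested, and no member was lower, beside 3.00% of all genes tested. When limma estimated a weight for each library, *Osr2-Cre;Ezh2 fl/fl* library 4 received 9.66 and no other library more than 2.31, and all 51 log2 fold changes were positive. That fit called *Mcm4*, *Mcm6* and *Nuf2* higher at an adjusted p under 0.05 and also called 27.2% of all genes tested.

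Other genes of the same processes were taken as 3 further lists. Of 44 other replication genes, 0 passed at an adjusted or an unadjusted p under 0.05 in limma, and their median log2 fold change was 0.01. Of 60 other mitosis genes, 60 were in the table and tested (*Sgo1* under its older symbol *Sgol1*), 0 passed at either threshold and the median was -0.09. Of 11 cyclins, Cdks and E2F factors of S and M phase, 0 passed at either threshold and the median was -0.03. Over all genes tested 2.07% passed at an adjusted p, and 4.87% (lower) and 8.27% (higher) at an unadjusted p under 0.05. With enamel transcripts as a covariate 30 of the 60 other mitosis genes (median -0.25), 3 of the 44 other replication genes (*Ticrr*, *Pold1*, *Dnmt1*) and 1 of the 11 (*Ccnb1*) were lower at an unadjusted and 0 at an adjusted p under 0.05, beside 6.11% and 2.03% of all genes tested.

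The library pattern was present in these lists too: the other mitosis genes had a level of 0.24, 0.08, 0.09 and -0.22 in the control and 0.01, -0.02, -0.41 and 0.24 among *Osr2-Cre;Ezh2 fl/fl* samples, and the other replication genes 0.01, 0.01, 0.01 and -0.04 and 0.09, -0.03, -0.15 and 0.14. The smallest unadjusted p-values of these lists were those of *Pole4*, *Orc3*, *Ticrr*, *E2f1* and *E2f2*, with log2 fold changes of 0.16, 0.14, -0.19, 0.14 and -0.19 and adjusted p-values in limma of 0.494 to 0.608. *Pole4*, an accessory subunit of polymerase epsilon, had group means of 25.4 ± 0.789 and 28.7 ± 3.38 (SD, n = 4), and *Ticrr*, needed to start replication, 18.6 ± 1.06 and 16.3 ± 2.34.

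Levels of different genes were compared as control means per kb of summed exons. On this scale *Pcna* was the highest S-phase member with 42.5 per kb, and *Mki67* and *Top2a* the highest G2/M members with 36.7 and 29.6 per kb. *Orc1*, *Cdc6* and *Mcm10* were lowest with 1.48, 1.66 and 1.88 per kb, and the medians of the lists were close, 10.1 per kb for S-phase and 9.56 per kb for G2/M members. *Mcm2* was at 9.09 per kb and *Mcm6* at 21.1 per kb although their proteins act in 1 complex. Exons of all annotated transcripts were summed, so a gene with rarely used exons comes out too low per kb. Of the 51 members 27 overlap another annotated gene, 22 on the opposite and 11 on the same strand, and it is not stated whether counting used strand, so some of their reads may come from the other gene. *Pcna* and *Tyms* have annotated processed copies whose reads could be split with them.

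Exon length was looked at after the data were seen. Across 14510 genes with a known length the Spearman correlation of length with deviation was -0.47 for number 1 of *Osr2-Cre;Ezh2 fl/fl* and between -0.12 and 0.24 in the other libraries. Across the 51 members it came to -0.57 for that library and lay between -0.27 and 0.41 in the others. These are correlations across genes of single libraries, and genes are not independent. When the members were split at their median length of 4354 bp, the longer minus the shorter members came to 0.20, 0.07, 0.06 and -0.09 in the control (median log2 deviations) and to -0.14, 0.07, -0.18 and 0.03 for *Osr2-Cre;Ezh2 fl/fl*. G2/M members were longer than S-phase members, with medians of 4919 and 3993 bp. Among the shorter members of *Osr2-Cre;Ezh2 fl/fl* library 1 the G2/M level was 0.05 and the S-phase level 0.15, and among the longer members they were -0.05 and 0.09. The correlation with length within this library was -0.51 over the S-phase and -0.57 over the G2/M members, and the part of length in its levels was not tested further.

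The promoters of the members were searched for motifs known from genes of these phases. Whether such motifs have a part in the library pattern was not tested. Many genes of late cell cycle are known to carry a cell cycle homology region and CCAAT boxes near their start, and many S-phase genes carry E2F sites. In the RefSeq promoter table (GRCm38.p6; 250 bases before to 50 after each start), 43 of the 51 members were found, 23 S-phase members with 28 promoters and 20 G2/M members with 22 promoters; *Mcm4*, *Gins1*, *Gins2*, *Pole*, *Aurkb*, *Cdc25c*, *Kif20a* and *Tpx2* had no entry. Both strands were searched. The cell cycle homology region TTTGAA was present in 17 of 22 G2/M promoters (77.3%) and 3 of 28 S-phase promoters (10.7%), beside 17.9% of all 32851 promoters and 12.04% of those of genes tested. The pentamer CCAAT was present in 72.7% of G2/M and 64.3% of S-phase promoters, beside 37.4% of all promoters and 37.5% of those of genes tested. At least 1 of the E2F motifs TTTGGCGC, TTTCGCGC and GGCGGGAA was present in 14 of 28 S-phase promoters and in 0 of 22 G2/M promoters, beside 2.96% of all promoters and 5.25% of those of genes tested. The variant TTCGAA was present in 13.6% of G2/M and 7.14% of S-phase promoters, beside 1.56% of all promoters and 2.05% of those of genes tested. Alternative promoters of a gene overlap in part, TTTGGCGC and TTTCGCGC on the other strand can share bases, and so can GGCGGGAA on the other strand and CCAAT. A match describes letters in a window and was not tested for binding.

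Promoters of 5 G2/M genes are shown because each holds the homology region within 120 bases before the start; the windows run 5′ to 3′ on the gene's strand and end at the base before the start, with every motif match of either strand in capitals (TTCAAA and ATTGG are the other-strand forms of TTTGAA and CCAAT). They lie at chr4:118437344-118437463 (minus strand) for *Cdc20*, chr7:135716380-135716499 (minus strand) for *Mki67*, chr11:99024190-99024309 (minus strand) for *Top2a*, chr19:37376262-37376381 (plus strand) for *Kif11* and chr7:80294356-80294475 (plus strand) for *Prc1*, counted from RefSeq starts. By the GENCODE starts the last 9 bases of the *Cdc20* window and the last 26 of the *Prc1* window are transcribed, and a match lies in or reaches into each of these stretches.
Cdc20: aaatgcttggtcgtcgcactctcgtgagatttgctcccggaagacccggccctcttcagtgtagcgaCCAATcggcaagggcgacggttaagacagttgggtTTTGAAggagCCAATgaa
Mki67: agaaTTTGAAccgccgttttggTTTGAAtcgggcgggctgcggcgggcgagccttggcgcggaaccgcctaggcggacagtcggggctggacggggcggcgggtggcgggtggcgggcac
Top2a: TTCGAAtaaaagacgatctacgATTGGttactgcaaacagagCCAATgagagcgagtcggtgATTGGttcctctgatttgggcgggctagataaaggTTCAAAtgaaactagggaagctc
Kif11: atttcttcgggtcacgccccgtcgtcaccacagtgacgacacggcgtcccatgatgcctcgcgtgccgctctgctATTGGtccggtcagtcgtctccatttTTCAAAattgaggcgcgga
Prc1: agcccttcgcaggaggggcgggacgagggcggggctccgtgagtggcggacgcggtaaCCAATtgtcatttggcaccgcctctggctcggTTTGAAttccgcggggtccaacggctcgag

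Promoters of 4 S-phase genes are shown in the same form because each holds an E2F motif in this window (GCGCGAAA and TTCCCGCC are the other-strand forms of TTTCGCGC and GGCGGGAA). They lie at chr1:128359706-128359825 (minus strand) for *Mcm6*, chr4:108579334-108579453 (plus strand) for *Orc1*, chr7:102441575-102441694 (plus strand) for *Rrm1* and chr10:128015095-128015214 (plus strand) for *Prim1*. By the GENCODE starts the last 31 bases of the *Orc1* window and the last 47 of the *Prim1* window are transcribed, and the E2F match of each lies there.
Mcm6: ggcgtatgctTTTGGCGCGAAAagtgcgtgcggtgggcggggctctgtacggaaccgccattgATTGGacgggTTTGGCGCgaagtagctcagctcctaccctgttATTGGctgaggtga
Orc1: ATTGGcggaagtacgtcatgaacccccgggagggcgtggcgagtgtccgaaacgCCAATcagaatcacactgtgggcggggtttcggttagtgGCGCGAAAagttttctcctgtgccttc
Rrm1: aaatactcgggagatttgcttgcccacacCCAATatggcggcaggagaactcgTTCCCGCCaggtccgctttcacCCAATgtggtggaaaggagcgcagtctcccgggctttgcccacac
Prim1: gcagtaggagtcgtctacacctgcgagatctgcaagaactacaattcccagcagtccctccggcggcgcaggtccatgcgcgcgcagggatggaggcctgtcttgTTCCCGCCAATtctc

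In *Mcm6* TTTGGCGC occurs in both of its E2F-like stretches, and the upstream one overlaps TTTCGCGC on the other strand. *Ect2* and *Kif2c* among the G2/M genes also hold TTTGAA in such a window, and *Rfc3* and *Uhrf1* among the S-phase genes an E2F motif. *Mcm2*, an S-phase gene, holds TTTGAA. The GENCODE start of *Kif2c* lies 3867 bases upstream, so by it the whole *Kif2c* window is transcribed. That of *Rfc3* lies 34 bases upstream, and the *Rfc3* match falls in the transcribed stretch. The genes shown are examples chosen after the matches were seen. The genes shown had log2 fold changes of -0.18 (*Cdc20*), -0.21 (*Mki67*), -0.24 (*Top2a*), -0.15 (*Kif11*) and -0.21 (*Prc1*), and of 0.10 (*Mcm6*), -0.08 (*Orc1*), -0.09 (*Rrm1*) and 0.04 (*Prim1*), and none of these passed the test.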

How the data were processed

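RNA-seq of 8 molar mesenchyme libraries was used, 4 control and 4 *Osr2-Cre;Ezh2 fl/fl*, with groups and numbers from the sample labels. The methods of the study also speak of pairs of samples, in a number that differs from the 4 libraries of each group, and the labels name no pairs. The methods of the study name TopHat, mm10 and RPKM, whereas the submitters' processing notes name STAR 2.5.3a, Partek, CASAVA 1.8.2 and mm10. The deposited values were treated as a scaled signal, since gene length does not enter them and the upper quartile is nearly equal in all libraries. The smallest value of a library was taken as 1 added read, and estimated reads are the value divided by it, minus 1. Of the values below 20 times the smallest, only 57.4% to 62.8% per library were whole multiples of it, so these read numbers are approximate. The table has 0 unused columns of samples.

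Differences were tested with limma 3.58.1 in R 4.3.3 (mean-variance trend) on log2(value + 1), that is with a pseudocount of 1, with Benjamini-Hochberg adjustment over the 14854 genes tested. For single members a two-sided exact permutation p was computed from all 70 ways to arrange the libraries; 0.0286 is the smallest it can give. The labels do not say that each library came from a separate animal, so p-values measure the spread between samples. The model was also run on simulated data in which genes varied independently, with no shift of a library shared by genes. That run therefore cannot show how the test behaves with library differences such as those seen here. Lengths and positions came from GENCODE release 21 (GRCm38), handled in Python 3.11.15 (pandas 2.3.3, matplotlib 3.10.9 for plots).

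The members and lists were chosen with earlier results of these data known. Values of every library are given for *Mki67*, *Top2a*, *Pcna*, *Mcm2*, *Mcm5*, *Rrm2*, *Aurkb*, *Cdc20* and, as no member had an unadjusted p under 0.05, for the 5 members of each phase with the largest absolute log2 fold change; of the other cell cycle lists the 5 with the smallest unadjusted p are named. Members named beyond this were chosen after their values were seen.

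Alternatives were pseudocounts of 0.1 and 5, a stricter filter (value of 10) or none, median-of-ratios and quantile scaling, limma without trend, with robust moderation or with array weights, the replicate number as a block, the enamel covariate, and each library left out in turn. Leaving out the 3 libraries high in enamel transcripts together, and the split by exon length, were added after the data were seen.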

Additional observations from a re-analysis of the deposited data

Results flagged for a closer look

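Of 106 groups of 4 libraries looked at, 4 held a library far from the other 3 for its group's range; chance gives about 1 in 20, or about 5.3 of 106. *Orc6* was at 25.4 in control library 1 and at 28.5 to 28.8 in the other controls. *Cdc6* was at 7.55 in control library 1 and at 8.90 to 9.16 in the others. *Rrm1* was at 145 in control library 4 beside 152 in each of the others, and *Bub1b* was at 46.8 in control library 4 and at 60.2 to 62.0 in the others. All 4 were low values in control libraries, and their causes were not tested. The high *Ezh2* value of control library 1 is not among these 4.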

How the results depend on the processing

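Of the log2 fold changes of single genes named by the rule, with *Ezh2* and *Cdkn2a*, 325 kept their direction and side of the threshold over the 20 alternatives and 32 reversed; none of those 32 had passed limma with all libraries.

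With a filter at a value of 10, limma called 119 genes at an adjusted p under 0.05 and 1154 at an unadjusted p under 0.05, beside 308 and 1953, and *Cdkn2a* had no value because its levels are below that filter. With array weights these counts were 4040 and 6045, with 2 S-phase and 1 G2/M member at an adjusted and 7 and 2 at an unadjusted p under 0.05, and the G2/M median was 0.17; 9 of 44 other replication, 3 of 60 other mitosis (*Zwint*, *Cenpm*, *Spc25*) and 3 of 11 cyclin, Cdk and E2F genes (*Ccne1*, *Cdk2*, *E2f2*) also had an adjusted p under 0.05. The reversed log2 fold changes there were *Mki67* 0.048, *Top2a* 0.052, *Pcna* 0.072, *Mcm2* 0.22, *Mcm5* 0.10, *Rrm2* 0.10, *Aurkb* 0.13, *Cdc20* 0.19, *Uhrf1* 0.058, *Pole* 0.099, *Lig1* 0.14, *Mcm10* 0.00065, *Ect2* 0.11, *Kif2c* 0.18, *Bub1b* 0.10 and *Cdc25c* 0.11; that fit gave *Osr2-Cre;Ezh2 fl/fl* library 4 a weight of 9.66. With libraries of equal number treated as a block, 73 genes passed. Correlations between same-numbered libraries were -0.34, -0.08, 0.22 and -0.43, and those between libraries of different number ran from -0.49 to 0.56. Because the libraries also differed in make-up, such as enamel transcripts, these values cannot decide whether the numbers pair samples. The study's methods speak of pairs in a number other than 4, and which libraries these were is not stated.

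With the enamel covariate 1 S-phase and 20 G2/M members had an unadjusted p under 0.05, and *Ezh2* passed with a log2 fold change of -0.64 (adjusted p of 0.0274 in limma); under the other alternatives it did not pass, at -0.19 with array weights and -0.53 to -0.32 with each library left out in turn, against -0.46. With the 3 libraries high in enamel transcripts left out, chosen after the data were seen, 8 genes had an adjusted and 1052 an unadjusted p under 0.05, 1 of them an S-phase member, *Cdkn2a* had an adjusted p of 0.0951 in limma, and *Pcna* (0.18), *Mcm2* (0.18), *Mcm5* (0.037), *Rrm2* (0.076) and *Lig1* (0.023) reversed. Fewer libraries were tested there; otherwise the cause was not tested.

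Leaving out each library in turn gave 129 to 429 genes at an adjusted and 1277 to 2239 at an unadjusted p under 0.05, 0 to 2 S-phase and 0 to 1 G2/M members at an unadjusted p and 0 of either at an adjusted p under 0.05 in limma, an S-phase median of -0.12 to 0.06 and a G2/M median of -0.30 to 0.02. The log2 fold changes whose sign depended on the library left out ranged from -0.078 to 0.086 (*Pcna*), -0.149 to 0.126 (*Mcm2*), -0.194 to 0.031 (*Mcm5*), -0.124 to 0.048 (*Rrm2*), -0.151 to 0.064 (*Aurkb*), -0.330 to 0.038 (*Cdc20*), -0.219 to 0.027 (*Lig1*) and -0.365 to 0.019 (*Bub1b*). Each of these 8 genes was highest without *Osr2-Cre;Ezh2 fl/fl* library 3; *Pcna* was also positive without control library 3 or 4, and *Aurkb* without control library 1. The cause was not tested.

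Of the genes with an unadjusted p under 0.05, 1229 were higher and 724 lower, but 1012 and 919 with median-of-ratios and 1062 and 863 with quantile scaling, so this split depends on the scaling. Pseudocounts, no filter, and limma without trend or with robust moderation left each of the S-phase and G2/M counts at 0, while the log2 fold change of *Cdkn2a* was 3.06 with a pseudocount of 0.1 and 0.42 with 5, against 1.34. With 4 libraries per group the 95% intervals excluded a 1.5-fold lower level for 27 of 27 S-phase members but for only 11 of 24 G2/M members.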
